A study of Mus musculus with 6 samples.

Results

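The genes described here mark the blood vessels of the brain and the barrier they form. The request named 38 genes, and 36 of them were measured, out of 19700 genes tested on the arrays. For each gene the transcript cluster (probes that together read 1 transcribed region) that the array annotation assigns to that symbol and no other was read, and the brightest was taken where there were several. Ly6c1 and Apold1 share their only cluster with other symbols and were not analysed here. The 36 genes comprised 14 endothelial genes, 7 genes of transporters and their partners, 5 junction genes and 10 mural genes, the last being those of pericytes and vascular smooth muscle.

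Blood vessels of the brain are lined by endothelial cells that are sealed to each other by tight junctions and carry few vesicles, so that most solutes cross only by transporters. Pericytes wrap the capillaries, smooth muscle wraps the arterioles, and Wnt ligands of neural cells induce and maintain the barrier through β-catenin in the endothelium. Endothelial cells descend from mesoderm and not from the neural precursors that give rise to neurons and most glia.

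The 6 arrays held total RNA of C57BL/6 mice, 3 arrays for the control and 3 for the conditional knockout (cKO), at postnatal day 16. Both groups carried a Cre driver, and they differed in Atg7, which encodes an enzyme required to form autophagosomes: controls were Atg7+/+ and cKO mice were homozygous for the floxed allele, Atg7f/f. The sample titles call the driver NexCre, which would act in excitatory neurons of the forebrain, while the paper calls it Nestin-Cre, which acts in neural precursors, and recombination in vascular cells was not measured. The paper took cerebral cortex and the labels say brain. Nothing in the labels states that each array is a separate animal, so the p-values describe the spread among these arrays, which may be technical in part. The sex pattern of cKO 1, given below, differed from that of cKO 2 and cKO 3.

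Atg7 had a lower signal in each cKO array (5.90 to 6.12) than in any control array (6.39 to 6.58), from a cluster that the annotation also assigns to Camsap1. The difference was -0.48 (standard error 0.092, unadjusted p = 0.00125, adjusted p = 0.9995 from limma), so the targeted gene itself did not pass after adjustment. Correlations between arrays lay between 0.98 and 0.99. On the first principal component, with 36% of the variance, control 1 and cKO 1 had scores of 13.9 and 26.4 and the other 4 arrays scores below 0. cKO 1 also had a signal of 9.51 for Xist, the RNA of the inactive X chromosome, against 4.15 at most elsewhere, and low signals for the Y-linked genes Kdm5d (3.96, against 5.92 or more) and Eif2s3y (2.90, against 5.50 or more), so it had the pattern of a female and the other 5 arrays that of males. Of the cortical excitatory neuron markers 7 of 8 were measured, with mean levels of 7.57 to 7.87 in the control group and 7.34 to 7.77 in the cKO arrays. Neurod6 among them, a transcription factor of these neurons, had groups without overlap and differed by -0.44 (unadjusted p = 0.0243, adjusted p = 0.9995 from limma). The cortical marker Foxp2 and the striatal marker Rgs9, at -0.18 and -0.85, did not overlap either. The share of all genes without overlap was 8.40%. Of the 7 cortical markers, 3 had a higher mean in the cKO arrays and 4 a lower one. The 7 choroid plexus markers had their highest mean levels in control 2 (5.93) and cKO 1 (6.04), against 4.87 to 5.24 in the other arrays. Markers of striatal neurons (4 of 6 measured) had mean levels of 6.96 to 8.05 in the control group and 6.16 to 7.0 in the cKO arrays, and those of oligodendrocytes (5 of 6) 8.32 to 8.67 and 8.0 to 8.51. All 4 striatal and all 5 oligodendrocyte markers had a lower mean in the cKO arrays, with median differences of -0.72 and -0.30. The part of these differences between arrays in the vascular values was not tested.

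No vascular member differed between cKO and control brains beyond the spread of the arrays. By limma, 0 of the 36 members passed an adjusted p of 0.05, as did 0% of all genes, and 0 had an unadjusted p under 0.05, where 3.96% of all genes did. None of the 36 had groups without overlap, against 8.40% of all genes. The differences, cKO minus control, ran from -0.23 (Sox17) to 0.23 (Slco1a4) on the log2 scale, with 17 members above 0, 19 below and a median of -0.0040. The median over all genes was -0.0059. In bulk RNA, fewer vascular cells and less RNA per cell cannot be told apart, and neither can more cells and more RNA.

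The arrays bounded these differences without showing them to be absent. For 31 of the 36 members the 95% interval of the difference lay within 0.5 on the log2 scale in either direction, a fold change of 1.41. That is 86.1% of the members, beside 86.2% of the 14775 genes that were as bright, since all 36 members lay above the lowest 25% of genes by mean signal. The standard errors of the members ran from 0.069 to 0.23 with a median of 0.10. The intervals that reached beyond 0.5 were those of Sox17, Abcb1a, Slco1a4, Cldn5 and Rgs5.

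**Figure D1:**
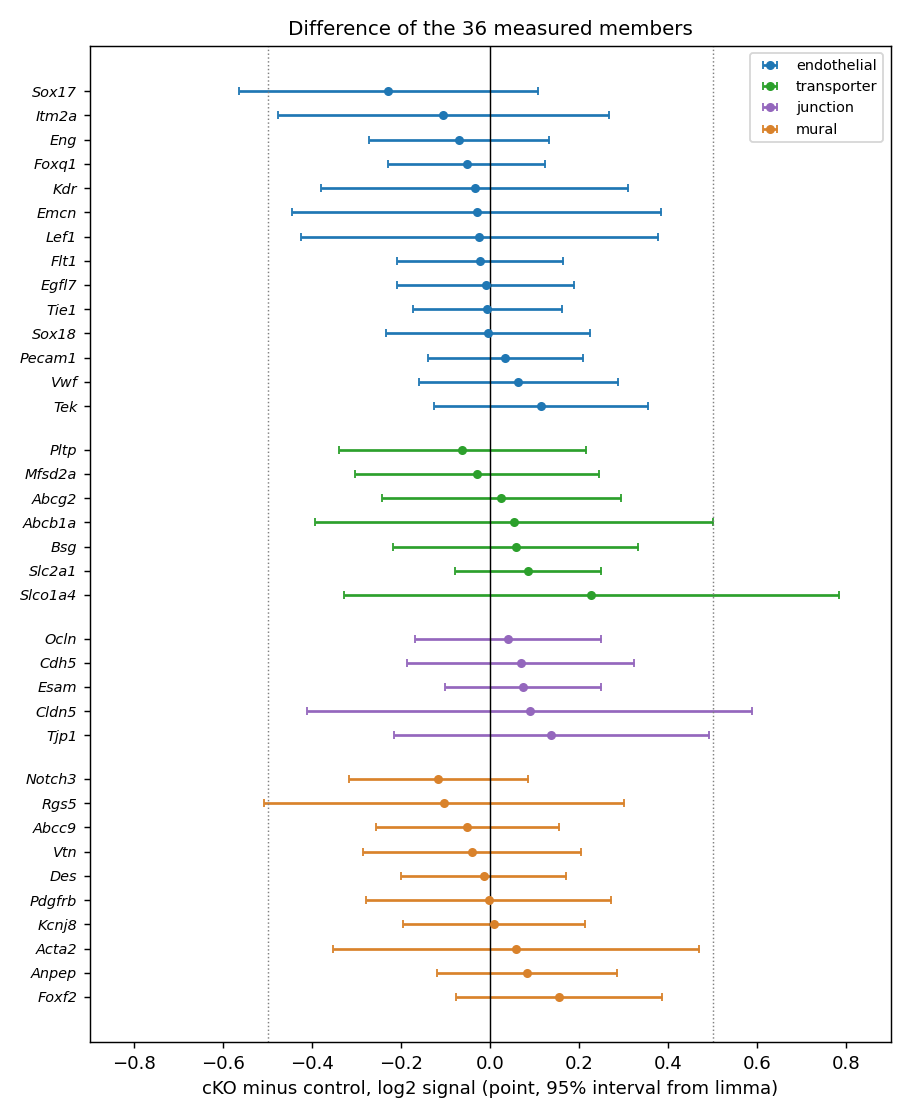
Difference between cKO and control in log2 signal for each of the 36 measured members (points) with the 95% interval from limma (bars), coloured by role group, with dotted lines at -0.5 and 0.5. Every interval includes 0, and the widest is that of Slco1a4, from -0.33 to 0.78.

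**Figure D2:**
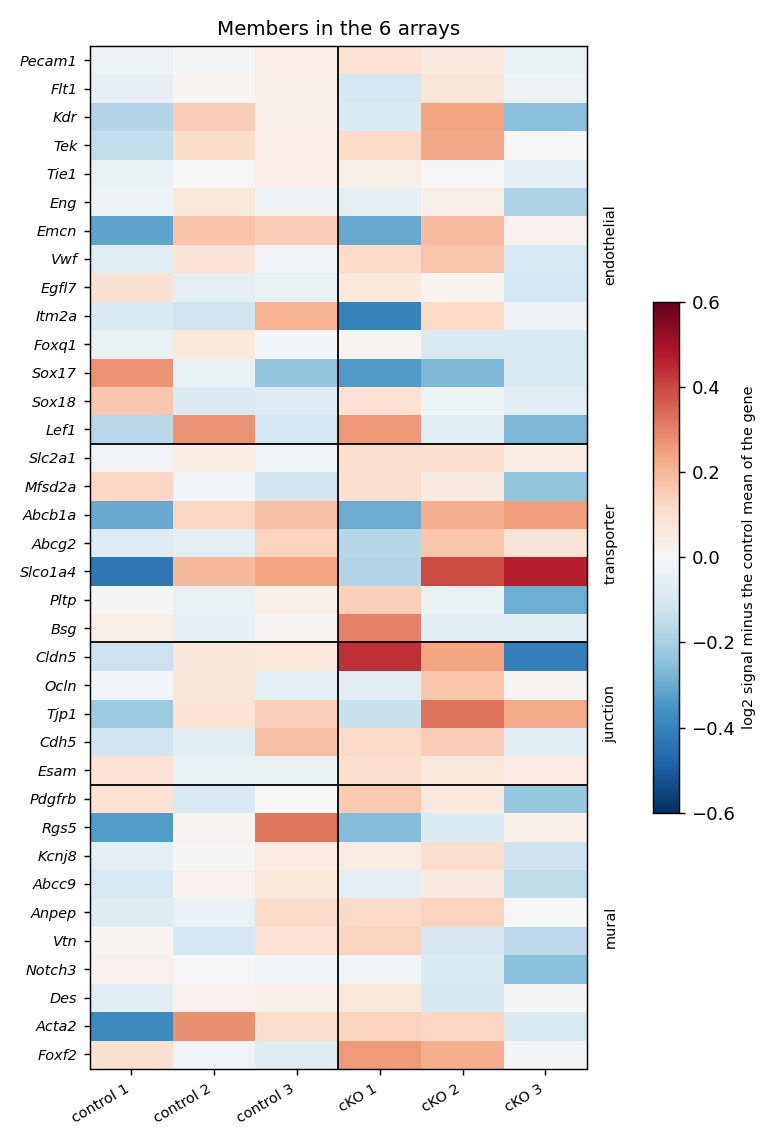
Log2 signal of each member in each of the 6 arrays minus its mean in the 3 controls, shown as colour, with lines between the role groups and between control and cKO. Columns differ as wholes, with 26 of 36 members above their control mean in cKO 2 and 9 of 36 in cKO 3.

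The endothelial genes had a median difference of -0.024, with 3 above 0 and 11 below. Single arrays set its sign and size, since it was 0.024 without cKO 3 and -0.062 without control 1. The growth factor receptors had small differences with intervals that included 0. Flt1 and Kdr, the VEGF receptors, differed by -0.02 (standard error 0.079) and -0.03 (standard error 0.15). Tie1 differed by -0.01 (standard error 0.071). Tek, the receptor of the angiopoietins, had signals of 5.56, 5.82 and 5.75 in controls 1 to 3 and of 5.83, 5.94 and 5.71 in cKO 1 to 3. Controls 2 and 3 lay within the range of the cKO arrays and control 1 below it, and the difference was 0.11 (standard error 0.10, unadjusted p = 0.301, adjusted p = 0.9995 from limma). It was 0.04 without control 1 and 0.17 without cKO 3.

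Among surface and secreted endothelial proteins, Pecam1, an adhesion molecule, was at 5.90 ± 0.034 (SD, n = 3) in the control group and 5.94 ± 0.068 (SD, n = 3) in the cKO arrays. Its interval, from -0.14 to 0.21, was one of the narrow ones and corresponds to fold changes of 0.908 to 1.16. Eng, a co-receptor for TGF-β, differed by -0.07, Egfl7, a secreted endothelial factor, by -0.01, Vwf, the clotting factor carrier, by 0.06 and the membrane protein gene Itm2a by -0.11. Emcn, which encodes the sialomucin of capillary and venous endothelium, differed by -0.03 but ranged over 0.50 across the 6 arrays. Its signals were 5.29, 5.78 and 5.75 in the control group and 5.30, 5.79 and 5.63 in the cKO arrays, so the low value in each group was that of the array numbered 1.

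Of the endothelial transcription factors, Sox17, which acts in arterial fate and Wnt-dependent barrier maturation, had the lowest p of all 36 members. Its signals were 5.60, 5.29 and 5.09 in controls 1 to 3 and 4.99, 5.06 and 5.25 in cKO 1 to 3. The cKO 3 value lay above that of control 3, which kept the groups from separating, and the difference was -0.23 (standard error 0.14, unadjusted p = 0.150, adjusted p = 0.9995 from limma). With 1 array left out it lay between -0.35, without control 3 (unadjusted p = 0.0446 from limma), and -0.09, without control 1. Between the arrays numbered 1 it was -0.61, and within the other 4 it was -0.04. Sox17 has 3 dimmer clusters, which differed by -0.09, 0.10 and 0.11, and with all 4 averaged the difference was -0.03. The first of the 3 was almost as bright as the cluster read, above 39.7% of the genes tested against 40.0%. Sox18, its relative, differed by -0.0041, Foxq1, a forkhead factor of brain endothelium, by -0.05 and Lef1, a nuclear partner of β-catenin, by -0.02. Lef1 ranged from 5.60 to 6.14 within the 6 arrays, so its interval reached from -0.43 to 0.38.

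The transporter genes had a median difference of 0.054, with 5 of 7 above 0, and one of -0.027 without cKO 2 and 0.012 without control 1. Slc2a1, which encodes the glucose transporter GLUT1 of the barrier, had the smallest standard error among the members. Its signals were 8.55, 8.62 and 8.55 in controls 1 to 3 and 8.68, 8.67 and 8.62 in cKO 1 to 3. The cKO values lay above those of controls 1 and 3, and cKO 3 was at the level of control 2. The difference of 0.08 (standard error 0.069, unadjusted p = 0.264, adjusted p = 0.9995 from limma) had an interval from -0.08 to 0.25, or fold changes of 0.946 to 1.19.

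Slco1a4, an organic anion transporter that carries thyroid hormones, steroid conjugates and drugs across the barrier, had the largest positive difference. It had signals of 5.82, 6.45 and 6.49 in controls 1 to 3 and of 6.08, 6.65 and 6.72 in cKO 1 to 3. The arrays numbered 1 were the lowest of their groups, and cKO 1 lay below controls 2 and 3. The difference was 0.23 (standard error 0.23, unadjusted p = 0.366, adjusted p = 0.9995 from limma). Without control 1 it was 0.01 and without cKO 1 it was 0.43. The 2 dimmer clusters of Slco1a4, whose means lay above 17.4% and 12.7% of the genes tested, differed the other way, by -0.22 and -0.69. In the dimmest of them each cKO array was below each control array, at 3.59, 4.20 and 3.95 against 2.61, 3.57 and 3.50. Slco1a4 has close relatives in its gene cluster, and whether their transcripts bind these probes was not tested.

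The efflux pumps of the barrier had mean differences near 0. Abcb1a, which encodes P-glycoprotein, had signals of 5.32, 5.74 and 5.79 in the control group and 5.32, 5.83 and 5.86 in the cKO arrays, a difference of 0.05 (standard error 0.19). As with Slco1a4 its low values were the arrays numbered 1, and its interval of -0.39 to 0.50 was wide. It has a near copy, Abcb1b, and whether transcripts of that gene add to its signal was not tested. Abcg2, the breast cancer resistance protein, differed by 0.02. Mfsd2a, the lipid transporter that holds vesicle traffic low in brain endothelium, differed by -0.03 with an interval from -0.30 to 0.24. Pltp, a phospholipid transfer protein, differed by -0.06, and Bsg, the partner of monocarboxylate transporters, by 0.06.

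All 5 junction genes had a higher mean in the cKO arrays, with a median of 0.073, and 47.5% of all genes had a higher mean. None of the 5 passed the test and their groups overlapped. The median was 0.027 without cKO 2 and 0.028 without control 1, and a single array turned the sign for Cldn5 (-0.09 without cKO 1) and Ocln (-0.02 without cKO 2). Esam, an endothelial adhesion molecule at tight junctions, had signals of 6.23, 6.10 and 6.10 in controls 1 to 3 and of 6.25, 6.21 and 6.19 in cKO 1 to 3. Only control 1 lay within the range of the cKO arrays, and the difference was 0.07 (standard error 0.074, unadjusted p = 0.358, adjusted p = 0.9995 from limma). Tjp1, which encodes the scaffold ZO-1 and is also made by many other cell types, had signals of 7.11, 7.41 and 7.47 in the control group and 7.20, 7.65 and 7.55 in the cKO arrays. Here cKO 2 and cKO 3 lay above all controls and cKO 1 below controls 2 and 3, and the difference was 0.14 (standard error 0.15, unadjusted p = 0.390, adjusted p = 0.9995 from limma). Without control 1 it was 0.03 and without cKO 1 it was 0.27.

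Cldn5, the main claudin of the barrier, was the junction gene that varied most. Its signals were 5.66, 5.86 and 5.86 in controls 1 to 3 and 6.23, 6.03 and 5.38 in cKO 1 to 3. The highest and the lowest of the 6 values were both cKO arrays, with an SD of 0.44 in the cKO and 0.11 in the control group. The difference was 0.09, but -0.09 without cKO 1 and 0.34 without cKO 3 (unadjusted p = 0.0245 from limma in that last fit). Cdh5, the cadherin of endothelial adherens junctions, differed by 0.07 and Ocln, the tight junction protein occludin, by 0.04.

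The mural genes had a median difference of -0.0095, with 4 above 0 and 6 below. It was 0.046 without cKO 3, 0.018 without control 3 and -0.041 without control 1. Foxf2, a forkhead factor needed for brain pericytes, had signals of 5.62, 5.51 and 5.46 in controls 1 to 3 and 5.79, 5.75 and 5.52 in cKO 1 to 3. Only cKO 3 was among the controls, and the difference was 0.16 (standard error 0.098, unadjusted p = 0.157, adjusted p = 0.9995 from limma). Without cKO 3 it was 0.24 (unadjusted p = 0.0384 from limma). Notch3, the Notch receptor of mural cells, had signals of 6.52, 6.49 and 6.47 in the control group and 6.48, 6.42 and 6.25 in the cKO arrays. The cKO 1 value lay between those of controls 2 and 3, the other cKO values below all controls, and the difference was -0.12 (standard error 0.085, unadjusted p = 0.213, adjusted p = 0.9995 from limma). Without cKO 3 it was -0.05.

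The defining pericyte genes had overlapping groups. Pdgfrb, the receptor through which endothelial PDGF-B recruits pericytes, was at 7.09 ± 0.091 (SD, n = 3) and 7.09 ± 0.20 (SD, n = 3) in control and cKO arrays. Rgs5, a regulator of G protein signalling, differed by -0.10, with 6.41 in control 1 and 6.48 in cKO 1 below the 6.66 to 7.06 of the other arrays. That difference was -0.27 without control 1 and 0.06 without control 3, and a dimmer cluster of Rgs5 differed by -0.17. Kcnj8 and Abcc9, which encode the channel and sulphonylurea receptor subunits of a pericyte potassium channel, differed by 0.01 and -0.05. Anpep, an aminopeptidase, differed by 0.08 and Vtn, vitronectin, by -0.04. Of the contractile and filament genes, Acta2, smooth muscle actin, differed by 0.06 over a range of 0.66 and Des, desmin, by -0.02 over a range of 0.16.

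**Figure D3:**
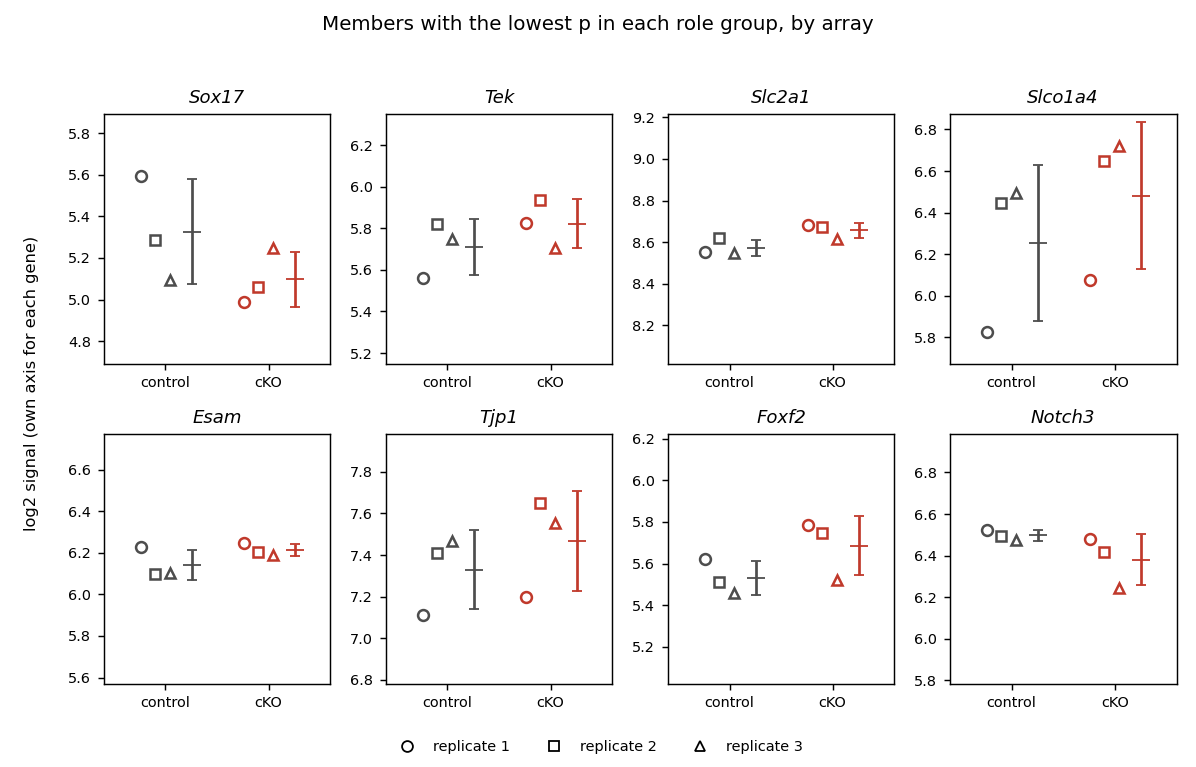
Log2 signal of the pair of members with the lowest p in each role group, by group, with a marker for each replicate and the mean ± SD (n = 3) beside the points. Each panel has its own axis, and in all 8 panels the control and cKO points overlap in range.

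The members also varied between arrays within a group. In control 1, 11 of 36 members (30.6%) lay above their control mean, while 58.1% of all genes did. In cKO 3, 9 of 36 members (25%) lay above their control mean, among them 1 of 14 endothelial and 1 of 10 mural genes, while 40.0% of all genes did. In cKO 2, 26 of 36 members (72.2%) lay above it, and 45.3% of all genes did. In cKO 1 the shares were 61.1% of members and 62.0% of all genes. Without cKO 3 the median difference over the members was 0.062. In the fits that left out 1 array, members with an unadjusted p under 0.05 by limma numbered 0 without control 1 (3.30% of all genes had one), 0 without control 2 (3.23%), 1 without control 3 (Sox17, 3.12%), 0 without cKO 1 (7.66%), 0 without cKO 2 (3.64%) and 2 without cKO 3 (Cldn5 and Foxf2, 4.22%).

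Both arrays numbered 1 lay below the other 4 for 7 of the 36 members, namely Flt1, Emcn, Abcb1a, Abcg2, Slco1a4, Tjp1 and Rgs5. This held for 10.2% of all genes. The opposite order held for 6 members, Egfl7, Sox18, Mfsd2a, Bsg, Esam and Pdgfrb, and for 23.4% of all genes. These counts were looked at after the values were seen, and the number is only a label in the sample titles. Of these arrays, cKO 1 had the female and control 1 the male pattern, so sex and genotype cannot be told apart between them. The mean of the arrays numbered 1 was lower than that of the other 4 by 0.63 on the log2 scale for Slco1a4, 0.49 for Abcb1a, 0.44 for Emcn, 0.37 for Rgs5 and 0.37 for Tjp1. For each of these 5 genes that gap was larger than the difference between genotypes.

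Within the arrays numbered 1, cKO minus control was 0.25 for Slco1a4, and within the other 4 it was 0.21. With the arrays numbered 1 as a block, a fit in limma added after the values were seen, Slco1a4 was the single member with an unadjusted p under 0.05, where 6.50% of all genes had one and 0 passed after adjustment. The block was chosen for the gap that this gene shows most, so its p in that fit is not independent of the choice. Its standard error there was 0.060, against 0.066 with a block for each replicate number and 0.23 without a block. For Tjp1 the values were 0.08 and 0.16, for Abcb1a 0.0011 and 0.08, and for Rgs5 0.08 and -0.19.

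**Figure D4:**
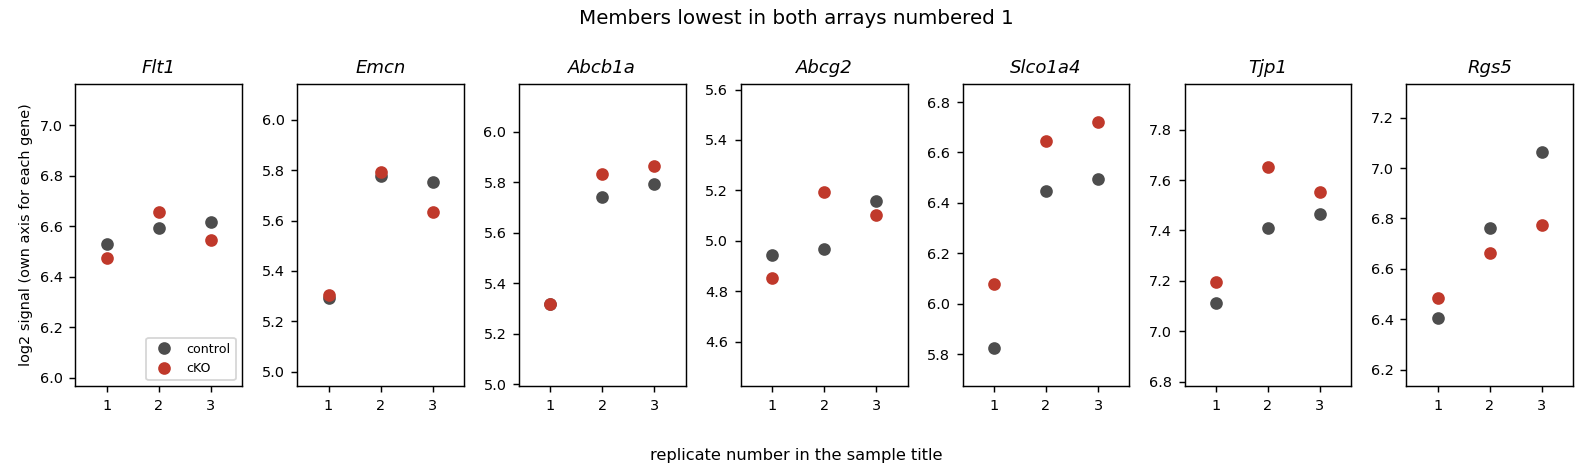
Log2 signal of the 7 members that were lowest in both arrays numbered 1, against the replicate number in the sample titles, with control in grey and cKO in red. The cKO point of Slco1a4 lies above the control point at each number, and the points of Abcb1a at number 1 coincide at 5.32.

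The promoters of the 3 members with the largest such gaps are shown because these genes were chosen for their low signals in both arrays numbered 1. They are RefSeq windows of GRCm38.p6, from 250 bases before to 50 after the start of the gene, 5′ to 3′ on the strand of the gene. Capitals mark matches on either strand to CCGGAA or CAGGAA (ETS family), ACAATG or ACAAAG (SOX family) and TCAAAG (TCF and LEF family), where the last of these shares CAAAG with the SOX letters but differs in the base before it.
Slco1a4, chr6:141856171-141856470, minus strand: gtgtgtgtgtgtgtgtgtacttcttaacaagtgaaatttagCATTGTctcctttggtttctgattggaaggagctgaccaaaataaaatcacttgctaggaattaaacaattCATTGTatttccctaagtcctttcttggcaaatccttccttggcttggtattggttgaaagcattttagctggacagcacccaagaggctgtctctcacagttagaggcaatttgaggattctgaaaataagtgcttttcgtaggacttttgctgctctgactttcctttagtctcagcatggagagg
Abcb1a, chr5:8566841-8567140, plus strand: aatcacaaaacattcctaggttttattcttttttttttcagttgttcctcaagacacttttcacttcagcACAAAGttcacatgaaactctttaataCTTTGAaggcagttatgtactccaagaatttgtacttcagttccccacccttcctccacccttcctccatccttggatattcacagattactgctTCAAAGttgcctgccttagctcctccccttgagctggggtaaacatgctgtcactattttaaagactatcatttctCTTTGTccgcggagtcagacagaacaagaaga
Emcn, chr3:137340828-137341127, plus strand: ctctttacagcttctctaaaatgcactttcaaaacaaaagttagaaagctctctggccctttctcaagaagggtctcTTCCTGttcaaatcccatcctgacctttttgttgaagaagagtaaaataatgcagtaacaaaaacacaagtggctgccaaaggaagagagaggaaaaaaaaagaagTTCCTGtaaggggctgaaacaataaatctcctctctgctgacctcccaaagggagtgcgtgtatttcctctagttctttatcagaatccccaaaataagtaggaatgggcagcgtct

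The windows of Slco1a4 and Abcb1a each held 2 SOX matches, that of Abcb1a also 2 TCF and LEF matches, and that of Emcn 2 ETS matches, so no motif was common to the 3. The table held 35 windows for 27 of the 36 members. Of these, 48.6% held an ETS match, beside 41.4% of all 32851 windows. A SOX match was in 20.0% and 28.6%, and a TCF or LEF match in 14.3% and 16%. A match is a run of letters and does not show binding.

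Genes that act with the members were read from 11 further lists, with 114 of 125 genes measured. By limma 0 of the 114 passed an adjusted p of 0.05, 3 had an unadjusted p under 0.05 (2.63%, beside 3.96% of all genes) and 5 had groups without overlap (4.39%, beside 8.40%). Their median difference was -0.0045.

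Angpt1, the ligand that activates the receptor encoded by Tek, had the lowest p of these. Its signals were 4.26, 3.95 and 3.88 in controls 1 to 3 and 3.66, 3.57 and 3.47 in cKO 1 to 3. Each cKO array lay below each control array, and the difference was -0.46 (standard error 0.12, unadjusted p = 0.00567, adjusted p = 0.9995 from limma), a fold change of 0.725. With 1 array left out it lay between -0.54 and -0.35. The cluster is dim, above 15% of the genes tested, and a dimmer cluster of Angpt1 differed by -0.17 with overlap. It was 1 of 7 measured VEGF and angiopoietin ligands and co-receptors, 2 of them above 0 and 5 below with a median of -0.052, and lower with an unadjusted p under 0.05, as were 1.87% of all genes.

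Cavin1, a coat protein of caveolae, had signals of 5.59, 5.84 and 5.95 in the control group and 6.28, 6.01 and 6.15 in the cKO arrays, without overlap. The difference was 0.35 (standard error 0.12, unadjusted p = 0.0224, adjusted p = 0.9995 from limma), and 0.25 without control 1, while a dimmer cluster differed by -0.13. Of the 6 genes of caveolae and transcytosis, 2 were above 0 and 4 below. Icam1, the adhesion molecule that binds leukocytes on activated endothelium, had signals of 5.85, 5.76 and 5.65 in the control group and 6.06, 5.92 and 6.03 in the cKO arrays. It did not overlap either, with a difference of 0.26 (standard error 0.085, unadjusted p = 0.0194, adjusted p = 0.9995 from limma). Microglia and astrocytes also make Icam1. The 6 measured microglia markers had mean levels of 6.45 to 6.66 in the control group and 6.48 to 6.69 in the cKO arrays. Those of the 5 astrocyte markers were 7.694 to 7.701 and 7.705 to 7.894, so the groups did not overlap. Of the microglia markers 3 had a higher mean in the cKO arrays and 3 a lower one, and all 5 astrocyte markers had a higher one. The part of these cells in the Icam1 value was not tested. Vcam1, another leukocyte adhesion molecule, was higher by 0.11 without overlap (unadjusted p = 0.201 from limma). Of 7 activation genes 6 were above 0, with a median of 0.026, and higher with an unadjusted p under 0.05 was Icam1 alone, beside 2.09% of all genes.

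**Figure D5:**
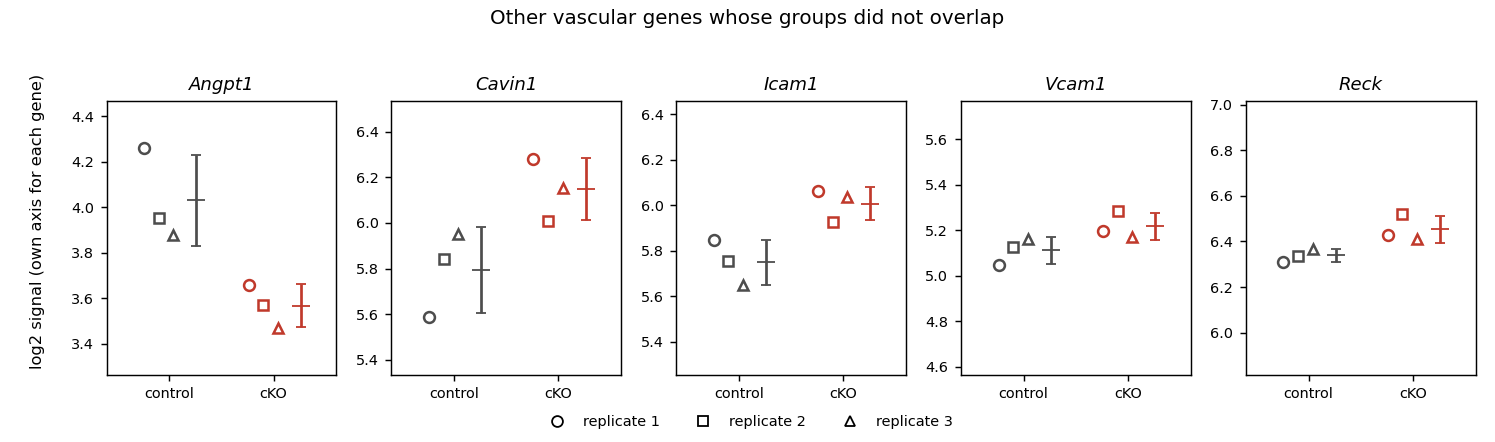
Log2 signal of the 5 other vascular genes whose groups did not overlap, with a marker for each replicate and the mean ± SD (n = 3) beside the points, each panel on its own axis. Angpt1 is lower in the cKO arrays and Cavin1, Icam1, Vcam1 and Reck are higher, by 0.11 to 0.35.

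The remaining lists held no gene with an unadjusted p under 0.05. Of 14 genes of Wnt and norrin signalling to the barrier, 8 were above 0 with a median of 0.0033. Reck, which presents the WNT7 ligands to endothelial cells with its partner ADGRA2, was higher by 0.11 without overlap (unadjusted p = 0.153 from limma). Of 13 other barrier transporters, 9 were above 0 (median 0.033), and of 10 other junction genes 5 (median 0.00039). Of 14 other endothelial genes, 5 were above 0 (median -0.0076), and of 10 endothelial transcription factors 5 (median 0.0053). Of 11 other mural genes, 5 were above 0 (median -0.0021). Among 10 genes of signalling between endothelium and mural cells, 4 were above 0 (median -0.063), and among 12 genes of the vascular basement membrane 3 (median -0.023).

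Cells that adjoin the vessels were read beside these values. Gjb6, a connexin of astrocyte endfeet, was at 7.37 ± 0.13 (SD, n = 3) in the control group and 7.79 ± 0.16 (SD, n = 3) in the cKO arrays without overlap (difference 0.41, standard error 0.11, unadjusted p = 0.00865, adjusted p = 0.9995 from limma). All 6 measured endfoot genes were above 0, with a median of 0.043, and their mean levels were 7.72 to 7.84 in the control group and 7.73 to 8.01 in the cKO arrays. The 8 fibroblast genes of meninges and perivascular spaces had a median of 0.11 and none passed an unadjusted p of 0.05. Of the red blood cell genes 2 of 7 were measured. The haem synthesis gene Alas2 was at 5.79 ± 0.24 (SD, n = 3) in the control group and 6.24 ± 0.27 (SD, n = 3) in the cKO arrays, with overlap. Its unadjusted p was 0.0359 and its adjusted p 0.9995 from limma, and 3.96% of all genes had an unadjusted p under 0.05. The other gene, Slc4a1, differed by 0.07, also with overlap (unadjusted p = 0.519 from limma).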

How the data were processed

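RNA was measured on 6 Affymetrix mouse exon 1.0 ST arrays, 3 control and 3 cKO. The table deposited by the authors gives log2 values for 101175 transcript clusters, summarised over probes and normalized between arrays beforehand. The paper names GeneSpring as the software. How probes were summarised and which annotation and genome build were used is not stated in the sources read. That the scale is log2 was taken from its range. A second deposited table holds the p-values and fold changes of the authors' own comparison and was not used.

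Of the clusters, 22773 had 1 gene symbol and 1503 several, and the latter were left out except that of Atg7. Current symbols came from a RefSeq table of GRCm38.p6. The brightest cluster of each gene was kept, without a filter on dim genes, which gave 19700 genes. Differences were tested two-sided in limma 3.58.1 under R 4.3.3 (a linear fit per gene with moderated variances), with Benjamini-Hochberg adjustment over all genes at 0.05. The fit was tested on simulated data. Lists are described by counts and medians without a test. Precision is limited by 3 arrays a group.

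Members and lists were chosen with earlier results of these data known. Tests are given for the pair of members with the lowest p in each role group, for any member with an unadjusted p under 0.05 or without overlap, and for up to 3 genes of each other vascular list with both. Atg7 is given as the targeted gene. Cldn5, Pecam1 and Pdgfrb in detail, the genes by array number, Vcam1 and Reck were added after their values were seen. So were the marker genes Gjb6, Alas2, Slc4a1, Neurod6, Foxp2 and Rgs9. Alternatives covered normalization, centring, dim genes, the spread, the clusters, a replicate block, the threshold and each array left out.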

Additional observations from a re-analysis of the deposited data

How the results depend on the processing

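Under all alternatives run, 0 members had an adjusted p under 0.05 from limma, and 0 had one under 0.1. Over all genes the count was 1 when the lowest 25% by signal were left out and 1 when all clusters of each gene were averaged, both times the imprinted gene Peg10, which is not a member. Members with an unadjusted p under 0.05 from limma numbered 1 with the block for the arrays numbered 1, where 6.50% of all genes had one. They numbered 1 with the replicate block too, for which the share of all genes was not counted. In both cases the member was Slco1a4. With 1 array left out they numbered 0 to 2, where 3.12% to 7.66% of all genes had one (Sox17 without control 3, Cldn5 and Foxf2 without cKO 3). The replicate numbers did not pair the arrays, since deviations correlated at 0.31, 0.037 and 0.17 for numbers 1 to 3, so the replicate block, which gave Slco1a4 an unadjusted p of 0.0194 and an adjusted p of 0.791, describes the numbers alone. It changed no call after adjustment. Members without overlap numbered 2 with quantile normalization (9.65% of all genes) and 2 with centred arrays (9.40%), in both cases Slc2a1, higher, and Notch3, lower. With 1 array left out they numbered 1 to 7, where 15.1% to 26.9% of all genes did not overlap. The median of the transporter genes lay between -0.027, without cKO 2, and 0.075, without cKO 3, and was 0.012 without control 1. That of the endothelial genes lay between -0.062 and 0.024, of the junction genes between 0.027 and 0.12, and of the mural genes between -0.041 and 0.046. That of all members lay between -0.018, without cKO 2, and 0.062, without cKO 3. With its clusters averaged Slco1a4 differed by -0.23, since both dimmer clusters had the opposite sign, and Sox17 by -0.03. The 3 arrays of a group limit the precision. Of the 8 members with the lowest p by role group, the 7 others kept their direction under all settings run, while Cldn5 turned to -0.09 without cKO 1.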
